A study of Rattus norvegicus with 8 samples.

Results

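The genes described here are 10 transcripts of the cells that surround the seminiferous tubules, read in libraries made from isolated germ cells. They are Insl3, Star, Cyp11a1 and Cyp17a1 of Leydig cells, Dlk1, Pdgfra and Ptch1 of interstitial cells and their progenitors, and Acta2, Myh11 and Col1a1 of peritubular myoid and stromal cells. Each was found by its symbol among the 24059 rows of the deposited table, and all 10 were abundant enough to be tested. The libraries hold polyA RNA of GFP-positive germ cells, and the rats of both groups were Sprague-Dawley with the GCS-EGFP transgene, a reporter of germ cells. One group of 4 rats (numbers 2, 3, 6 and 8) was given doxorubicin at 5 mg/kg on postnatal day 6, and the control group of 4 rats (numbers 1, 4, 5 and 9) was given vehicle on that day, with cells taken 24 h later. Doxorubicin, used against many cancers, blocks topoisomerase II and breaks DNA. Each library comes from 1 rat, and the number of cells taken from each testis is not given in the sources used here.

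Leydig cells lie between the tubules and make androgens and insulin-like peptide 3, with cholesterol carried into mitochondria by StAR and then cut and modified by a chain of cytochrome P450 enzymes. Peritubular myoid cells wrap each tubule in a thin contractile layer and share much of the smooth muscle programme. Desert hedgehog from Sertoli cells acts on both cell types through the receptor Patched, so these genes are commonly read as signs of the somatic side of the testis.

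Total estimated counts ran from 41665785 to 58871101 in doxorubicin libraries and from 41253848 to 57700969 in control libraries, so that 1 CPM (counts scaled to library size, with TMM factors) stood for at least 41.3 counts, a counting error of at most 15.6%. A list of 20 germ cell genes summed to 4093 ± 41.7 CPM after doxorubicin and 4074 ± 66.9 CPM in controls (SD, n = 4 each), and all 20 exceeded 10 CPM on average. Transcript lengths were not used here, so CPM values are compared between libraries and not between genes. In RNA from pooled cells, fewer cells of a type and less RNA per cell cannot be told apart.

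Over the whole table edgeR's quasi-likelihood test called 19 of 16976 genes at a Benjamini-Hochberg adjusted p below 0.05, which is 0.112%. It called 0 of the 10 genes, whose adjusted p ran from 0.561 to 1.00. DESeq2 and limma-voom, which called 1.02% and 0.141% of all genes, also called 0 of 10. At an unadjusted p below 0.05, where 6.76% of all genes fell, edgeR had 2 of 10. Myh11 was the 1 higher after doxorubicin, as were 4.19% of all genes, and Pdgfra the 1 lower, as were 2.56%. The log2 fold change of doxorubicin over control was positive for 3 genes and negative for 7, against 47.8% positive over all genes. Their median was -0.02, against -0.0047 over all genes tested.

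**Figure D1:**
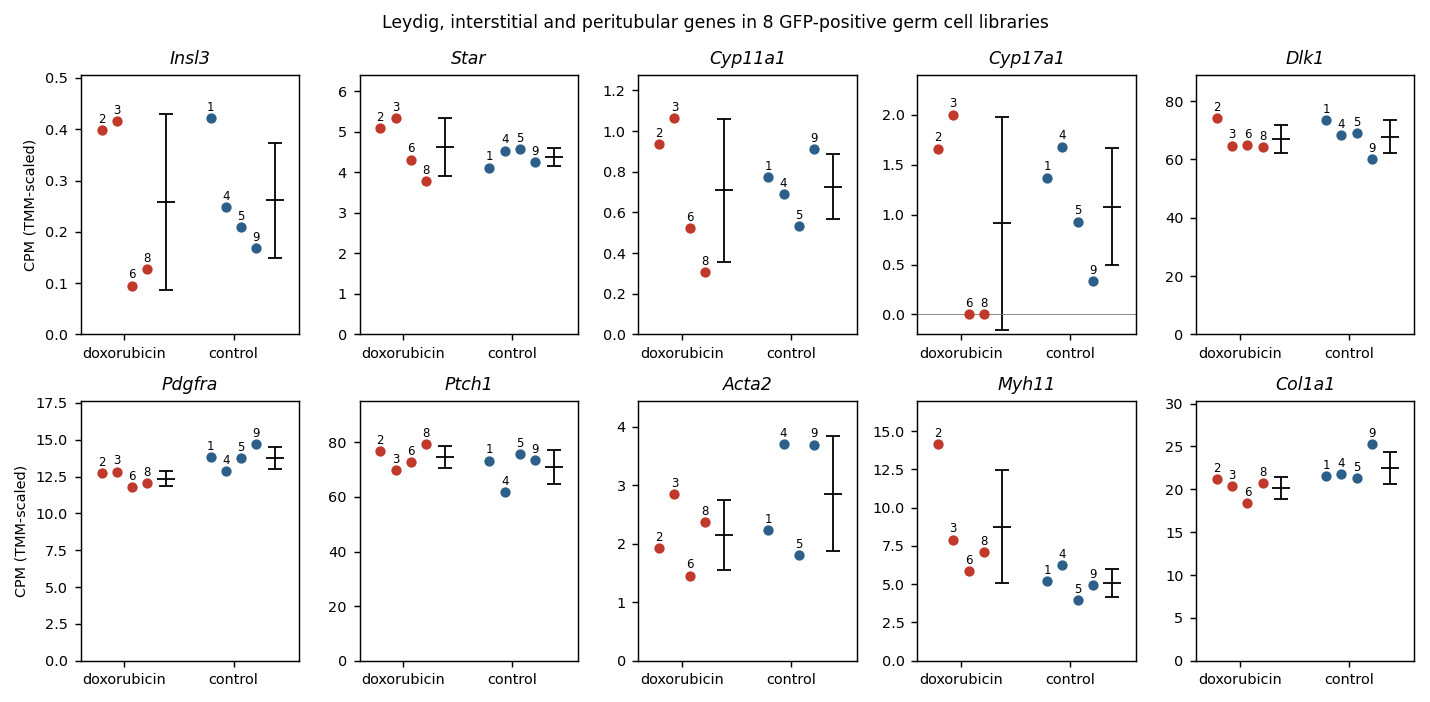
TMM-scaled CPM of the 10 genes in each library, doxorubicin left (red) and control right (blue), with the rat number above each point and the mean and SD (n = 4) as a bar beside them. Cyp17a1 is at 0 in doxorubicin rats 6 and 8, and Myh11 is highest in doxorubicin rat 2.

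The Leydig genes come first. Insl3 (ENSRNOG00000068505.1), the peptide hormone that drives testis descent, was at the edge of detection, with 23, 23, 4 and 7 counts in doxorubicin rats 2, 3, 6 and 8, against 24, 14, 11 and 7 counts in control rats 1, 4, 5 and 9. As levels these were 0.398, 0.415, 0.0953 and 0.127 CPM after doxorubicin, against 0.422, 0.248, 0.209 and 0.168 CPM in controls. The groups overlapped throughout, and the treated rats split into a high and a low pair. The group means were 0.259 ± 0.171 CPM after doxorubicin and 0.262 ± 0.112 CPM in controls (SD, n = 4 each), with a log2 fold change of 0.00 and a 95% interval from -1.05 to 1.05 (edgeR adjusted p = 1.00).

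The table names a second row Insl3, but with the Entrez identifier that RefSeq gives to the kinase gene Jak3. That row held 2.31 counts in doxorubicin rat 2, fewer in control rats 4 and 9, and 0 in the other libraries. In those 3 libraries both rows carried fractions of a count that added up to whole numbers, 25 in doxorubicin rat 2, 15 in control rat 4 and 9 in control rat 9. The row with the higher mean count was used, and how reads were divided between the rows is not given in the sources.

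Cyp17a1 (ENSRNOG00000020035.5), the P450 enzyme that turns progestogens into androgens, had the widest spread. It measured 96, 111, 0 and 0 counts in doxorubicin rats 2, 3, 6 and 8, against 78, 95, 49 and 14 counts in control rats 1, 4, 5 and 9. The matching levels were 1.66, 2.00, 0 and 0 CPM after doxorubicin, against 1.37, 1.68, 0.929 and 0.336 CPM in controls. Doxorubicin rat 3 was thus the highest library and doxorubicin rats 6 and 8 the lowest, with every control between them. A count of 0 allows up to 0.0715 CPM in doxorubicin rat 6 and 0.0543 CPM in doxorubicin rat 8, taking 3 counts as the limit. The edgeR log2 fold change was -0.22 with a 95% interval from -2.84 to 2.40 (adjusted p = 0.991), wide enough that a change of either sign was not detectable. With libraries at 0 the fitted value depends on the method, and limma-voom gave -2.68 (adjusted p = 0.765).

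Cyp11a1 (ENSRNOG00000008074.7), which cuts the cholesterol side chain in the first step of steroid synthesis, measured 0.934, 1.07, 0.524 and 0.308 CPM in doxorubicin rats 2, 3, 6 and 8. In control rats 1, 4, 5 and 9 it measured 0.774, 0.691, 0.531 and 0.911 CPM. Doxorubicin rats 2 and 3 lay above every control, and doxorubicin rats 6 and 8 lay below every control. Both gaps were narrow. Doxorubicin rat 2 was next to control rat 9 (0.934 and 0.911 CPM), and doxorubicin rat 6 next to control rat 5 (0.524 and 0.531 CPM). The means were 0.708 ± 0.352 CPM after doxorubicin and 0.727 ± 0.159 CPM in controls, a log2 fold change of -0.02 (95% interval -0.76 to 0.72, edgeR adjusted p = 0.999).

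Star (ENSRNOG00000015052.5), the cholesterol carrier of mitochondria, measured 5.09, 5.34, 4.31 and 3.78 CPM in doxorubicin rats 2, 3, 6 and 8, against 4.12, 4.53, 4.57 and 4.24 CPM in control rats 1, 4, 5 and 9. Doxorubicin rats 2 and 3 were again the highest and doxorubicin rat 8 the lowest, though the highest library exceeded the lowest by only 1.41-fold. For Insl3 that ratio was 4.43-fold and for Cyp11a1 3.46-fold. The log2 fold change of Star was 0.09 ± 0.12 (SE, 95% interval -0.18 to 0.35, edgeR adjusted p = 0.962).

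Summed without Star, the Leydig genes came to 2.99, 3.48, 0.620 and 0.434 CPM in doxorubicin rats 2, 3, 6 and 8, against 2.57, 2.62, 1.67 and 1.42 CPM in control rats 1, 4, 5 and 9. Rats with a number from 1 to 4 were thus all higher than rats numbered 5 to 9, in either group. Taken gene by gene, Insl3 and Cyp17a1 separated these sets of rat numbers without overlap and the other 8 genes did not, where 9.29% of all genes tested did so. The labels do not say what the numbers stand for, and the sets were chosen after the data had been seen. Within rats 1 to 4 alone Cyp17a1 averaged 1.83 CPM after doxorubicin and 1.53 CPM in controls, from 2 rats against 2. Rats 5 to 9 include both treated libraries without Cyp17a1, with 0 counts in the doxorubicin pair and 63 counts in the control pair. Because both sets were chosen with the data in view, these values are given as a description. Whether the change differed between the sets was not tested. With the set as a term in the fit of all 8 libraries, the fold change of Cyp17a1 was -0.73 ± 0.85 on the log2 scale (SE, edgeR adjusted p = 0.883).

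For sequence context, the promoters of Insl3 and Cyp11a1 are shown as the Leydig genes with an entry in the RefSeq table of the GRCr8 assembly, 300 bases from 250 before to 50 after the start. Capitals mark AGGTCA, a half-site bound by nuclear receptors such as steroidogenic factor SF-1, on either strand. The Insl3 window is chr16:18432939-18433238 (plus strand) and the Cyp11a1 window is chr8:67318415-67318714 (plus strand).
Insl3: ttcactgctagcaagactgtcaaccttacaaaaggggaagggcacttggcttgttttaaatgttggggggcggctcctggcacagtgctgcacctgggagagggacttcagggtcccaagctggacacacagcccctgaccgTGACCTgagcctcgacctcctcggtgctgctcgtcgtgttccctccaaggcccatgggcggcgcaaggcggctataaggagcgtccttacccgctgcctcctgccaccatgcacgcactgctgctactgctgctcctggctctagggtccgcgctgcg
Cyp11a1: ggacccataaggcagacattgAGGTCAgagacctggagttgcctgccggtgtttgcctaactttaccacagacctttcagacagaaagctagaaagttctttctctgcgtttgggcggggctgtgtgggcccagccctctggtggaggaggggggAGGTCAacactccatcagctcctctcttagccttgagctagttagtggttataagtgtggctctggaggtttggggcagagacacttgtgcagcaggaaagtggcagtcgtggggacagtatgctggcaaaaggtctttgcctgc
Insl3 holds AGGTCA once, on the minus strand, 108 to 103 bases before the start, and Cyp11a1 holds it at 229 to 224 and at 95 to 90 bases before the start. The motif occurs in 16.2% of 33469 promoters of the same length. The longer form AAGGTCA, which contains it, was searched first. It occurs in 4.61% of promoters and in neither of these windows.

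The interstitial genes varied far less between libraries. Dlk1 (ENSRNOG00000019584.7), an imprinted gene for a membrane protein related to Notch ligands that marks fetal and progenitor Leydig cells, measured 74.3, 64.8, 64.8 and 64.1 CPM in doxorubicin rats 2, 3, 6 and 8. In control rats 1, 4, 5 and 9 it measured 73.6, 68.4, 69.0 and 60.2 CPM. The groups overlapped, with doxorubicin rat 2 and control rat 1 highest. The log2 fold change was -0.02 with a 95% interval from -0.16 to 0.12 (edgeR adjusted p = 0.988).

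Ptch1 (ENSRNOG00000019354.7), the hedgehog receptor and itself a target of hedgehog signalling, measured 76.6, 69.9, 72.8 and 79.3 CPM in doxorubicin rats 2, 3, 6 and 8, against 73.3, 61.9, 75.6 and 73.6 CPM in control rats 1, 4, 5 and 9. The groups overlapped and control rat 4 lay apart below the rest. On the log2 scale the fold change was 0.07 ± 0.06 (SE, 95% interval -0.06 to 0.21, edgeR adjusted p = 0.926). Its promoter window, chr17:1555321-1555620 (plus strand, GRCr8, RefSeq), is shown because GLI factors, which carry the hedgehog signal into the nucleus, act on Ptch1. Capitals mark GACCACCCA, the GLI consensus, which here reads on the minus strand.
Ptch1: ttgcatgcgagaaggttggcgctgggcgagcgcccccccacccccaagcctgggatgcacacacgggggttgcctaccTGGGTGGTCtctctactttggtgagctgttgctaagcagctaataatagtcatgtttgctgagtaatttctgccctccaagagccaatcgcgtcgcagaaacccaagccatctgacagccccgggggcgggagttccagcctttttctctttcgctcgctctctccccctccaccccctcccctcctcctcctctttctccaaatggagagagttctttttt
The match lies 172 to 164 bases before the start, and 0.385% of the 33469 promoters hold this motif on either strand.

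Pdgfra (ENSRNOG00000002244.6), the receptor for platelet-derived growth factor on Leydig progenitors and stromal cells, measured 12.7, 12.8, 11.8 and 12.1 CPM in doxorubicin rats 2, 3, 6 and 8. Control rats 1, 4, 5 and 9 had 13.8, 12.9, 13.7 and 14.7 CPM. Every treated library lay below every control library, by a narrow gap between doxorubicin rat 3 and control rat 4. In log2 terms the difference was -0.16 ± 0.07 (SE, 95% interval -0.31 to -0.005) with an unadjusted p of 0.0440 and, adjusted across the table, 0.714 in edgeR.

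Col1a1 (ENSRNOG00000003897.7), the main chain of fibrillar collagen type I, gave a similar picture, with 21.2, 20.4, 18.4 and 20.8 CPM in doxorubicin rats 2, 3, 6 and 8, against 21.6, 21.8, 21.3 and 25.3 CPM in control rats 1, 4, 5 and 9. Its groups did not overlap either, although the highest treated and the lowest control library nearly touched. Its log2 ratio was -0.15 ± 0.07 (SE, 95% interval -0.31 to 0.002, edgeR adjusted p = 0.746). Pdgfra and Col1a1 were the 2 of 10 genes whose groups did not overlap, where 4.72% of all genes tested had no overlap.

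The contractile genes of peritubular cells differed in the sign of their fold change. Myh11 (ENSRNOG00000057880.2), the smooth muscle myosin heavy chain, measured 14.2, 7.92, 5.86 and 7.08 CPM in doxorubicin rats 2, 3, 6 and 8, against 5.21, 6.23, 3.96 and 4.94 CPM in control rats 1, 4, 5 and 9. Doxorubicin rat 2 stood highest, and doxorubicin rat 6 was the only treated library below a control, control rat 4. The means were 8.75 ± 3.70 CPM after doxorubicin and 5.09 ± 0.93 CPM in controls (SD, n = 4 each), which edgeR fitted as a log2 ratio of 0.79 ± 0.27 (SE, 95% interval 0.17 to 1.41, unadjusted p = 0.0183, edgeR adjusted p = 0.561). Without doxorubicin rat 2 it was 0.45 (edgeR adjusted p = 0.607). Within rats 1 to 4 it was 0.95 ± 0.27 and within rats 5 to 9 it was 0.55 ± 0.15 (edgeR adjusted p = 1.00 and 0.241, 2 rats against 2 in each). These sets were chosen with the data in view, so both values are given as a description.

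Acta2 (ENSRNOG00000058039.2), smooth muscle alpha-actin, measured 1.92, 2.85, 1.45 and 2.37 CPM in doxorubicin rats 2, 3, 6 and 8, against 2.23, 3.70, 1.80 and 3.69 CPM in control rats 1, 4, 5 and 9. The groups overlapped, and control rats 4 and 9 were highest. Its log2 fold change was -0.40 ± 0.27 (SE, 95% interval -0.98 to 0.19, edgeR adjusted p = 0.868). The Acta2 promoter, chr1:241172454-241172753 (minus strand, GRCr8, RefSeq), is shown because serum response factor is known to act on smooth muscle genes through the CArG box. Capitals mark CArG boxes in which up to 1 of the 6 central letters is G or C.
Acta2: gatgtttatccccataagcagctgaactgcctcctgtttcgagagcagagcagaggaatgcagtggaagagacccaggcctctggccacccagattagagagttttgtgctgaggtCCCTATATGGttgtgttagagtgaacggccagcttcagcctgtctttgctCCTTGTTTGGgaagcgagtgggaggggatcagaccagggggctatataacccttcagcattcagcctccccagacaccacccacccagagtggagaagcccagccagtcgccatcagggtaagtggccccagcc
Matches lie 134 to 125 and 84 to 75 bases before the start and read on both strands, and 9.42% of the 33469 promoters hold such a match. The strict CArG box, with only A or T at the centre, occurs in 1.64% of promoters and not in this window. The RefSeq table held promoters for 6 of the 10 genes.

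**Figure D2:**
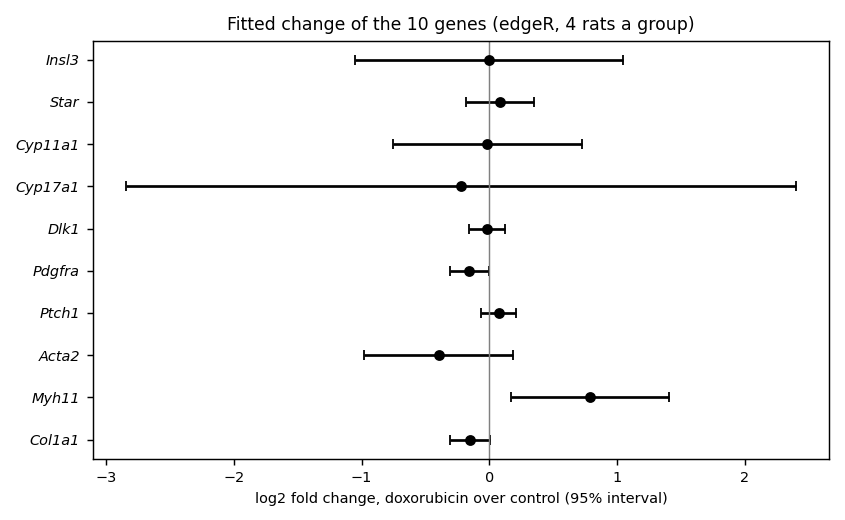
The log2 fold change of doxorubicin over control for each of the 10 genes from edgeR, with its 95% interval (4 rats a group). Dlk1, Pdgfra, Ptch1, Col1a1 and Star have narrow intervals, whereas that of Cyp17a1 runs from -2.84 to 2.40.

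The spread over all 8 libraries can be set against the error that counting alone gives. For Cyp17a1 the coefficient of variation was 80.3% with a counting error of 13.4%, for Insl3 51.5% with 26.6%, and for Cyp11a1 35.3% with 16.3%. Myh11 and Acta2 varied by 45.9% and 33.8%, with counting errors of 5.20% and 8.75%. Dlk1, Ptch1, Pdgfra and Col1a1 varied by 7.22%, 7.22%, 7.40% and 9.02%, and Star by 11.3%. The genes thus fell into 5 with a wide spread and 5 with a spread from 7.22% to 11.3%. The common biological variation that edgeR estimated over all genes was 8.82%. That is an unlike measure, taken within groups and without counting error, whereas the spreads here hold both counting error and any group difference.

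Co-variation across the 8 libraries was measured as the correlation of log2 CPM for all 45 pairs of the 10 genes, with exact two-sided permutation tests over 40320 arrangements. All 6 pairs among Insl3, Star, Cyp11a1 and Cyp17a1 were positive, with Pearson's r from 0.61 to 0.89 and a median of 0.72. The highest was that of Insl3 with Cyp17a1 (r = 0.89, exact permutation p = 0.00104, 0.0469 after Benjamini-Hochberg adjustment over 45 pairs). Its Spearman's rho was 0.83 (exact permutation p = 0.0172, adjusted 0.386), and r was 0.85 without the 2 libraries farthest from the median of Insl3. The call by r was lost when any 1 of the 8 libraries was left out, and by rho 0 pairs passed.

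Cyp11a1 with Cyp17a1 (r = 0.76, rho = 0.75, exact permutation p = 0.0249 and 0.0380, adjusted 0.332 and 0.536) did not pass the adjustment. Insl3 with Cyp11a1 (r = 0.71, rho = 0.71, exact permutation p = 0.0443 and 0.0576, adjusted 0.332 and 0.536) did not pass either. For the first of these r was 0.48 without the 2 libraries farthest from the median of Cyp11a1, and for the second it was 0.77 without those farthest for Insl3. Star with Cyp11a1 had r = 0.73 and rho = 0.62 (exact permutation p = 0.0427 and 0.115, adjusted 0.332 and 0.739). Without the 2 libraries farthest from the median of Star r was 0.21. Leaving them out also narrows the range of Star, so this drop cannot show what the relation rests on.

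When deviations from the means of the treated and control groups were used in place of levels, the median r of the 6 Leydig pairs was 0.78. With deviations from the means of rats 1 to 4 and rats 5 to 9 it was 0.50, and that of Insl3 with Cyp17a1 was 0.71. Each set of rat numbers has 4 libraries, too few for a correlation of its own.

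**Figure D3:**
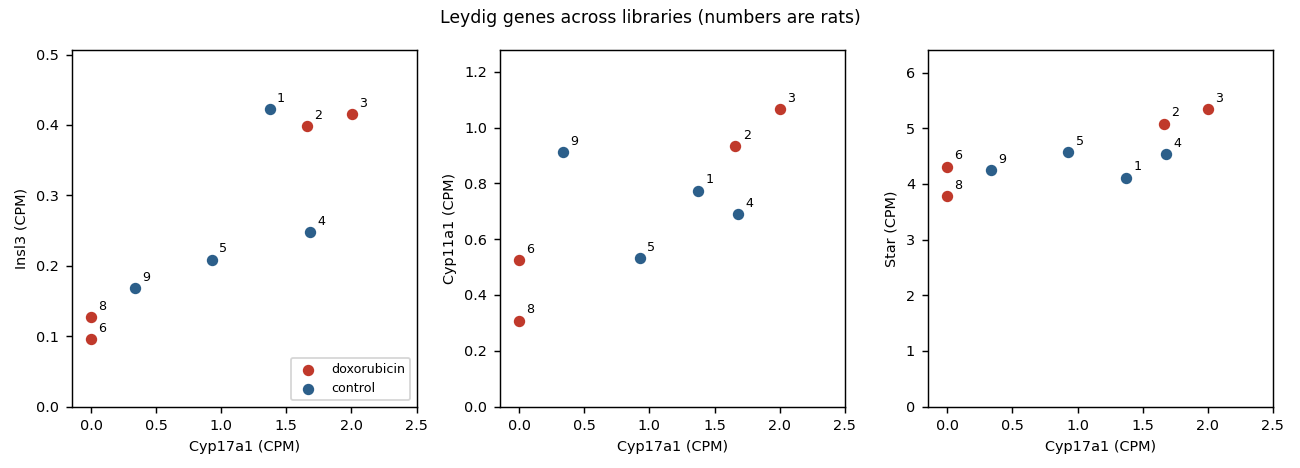
CPM of Insl3, Cyp11a1 and Star (vertical axes, from 0) against CPM of Cyp17a1 in the 8 libraries, doxorubicin in red and control in blue, with rat numbers beside the points. Doxorubicin rats 2 and 3 lie at the upper right of each panel and doxorubicin rats 6 and 8, with 0 CPM of Cyp17a1, at the left.

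Pairs outside the Leydig genes were less uniform. Among the other 6 genes, 6 of 15 pairs were positive, with a median r of -0.04. Pdgfra with Col1a1 had r = 0.85 and rho = 0.86 (exact permutation p = 0.00526 and 0.0107, adjusted 0.118 and 0.386). Their r was 0.72 with deviations from the group means and 0.50 without the 2 libraries farthest from the median of Pdgfra. Acta2 with Col1a1 had r = 0.73 and rho = 0.57 (exact permutation p = 0.0319 and 0.151, adjusted 0.332 and 0.802), and r was 0.51 without the 2 libraries farthest from the median of Acta2. The contractile pair Acta2 and Myh11 had r = -0.08. Between the 4 Leydig genes and the other 6, 19 of 24 pairs were positive with a median r of 0.27 and none below an unadjusted p of 0.05.

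**Figure D4:**
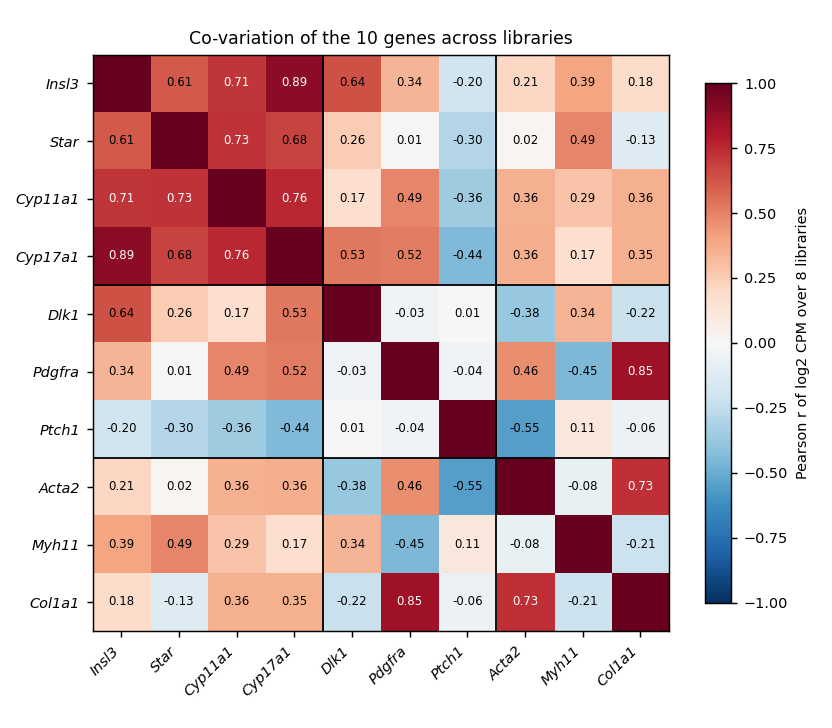
Pearson's r of log2 CPM over 8 libraries for each pair of the 10 genes, from -1 (blue) to 1 (red), with lines between Leydig, interstitial and peritubular genes. The block of 4 Leydig genes at the upper left is positive throughout, from 0.61 to 0.89.

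Library depth and other cell types were read beside these values. Over 10 relations with the log2 total count, Insl3 had r = 0.69 (rho = 0.57, exact permutation p = 0.0663 and 0.151) and Cyp17a1 r = 0.53 (rho = 0.36, exact permutation p = 0.106 and 0.379), with adjusted p of 0.331 and 0.352 for r. Without the 2 libraries farthest from the median total they were 0.48 and 0.11. Dlk1 had r = 0.72 (rho = 0.64, exact permutation p = 0.0461 and 0.0962, adjusted 0.331 for r), and r was 0.59 without those 2 libraries. Cyp11a1 had r = 0.03 with the total. Over 40 relations of the 10 genes with the summed CPM of Sertoli, endothelial, macrophage and germ cell lists, 0 passed the adjustment. The lowest adjusted p by r was 0.665 (exact permutation), and 1 relation had an unadjusted p below 0.05 by r. That was Ptch1 with the endothelial sum (r = 0.79, rho = 0.69, exact permutation p = 0.0166 and 0.0694), with r = 0.22 without the 2 libraries farthest from the median of that sum. By rho 1 relation fell below 0.05, that of Ptch1 with the Sertoli sum (r = -0.63, rho = -0.76, exact permutation p = 0.117 and 0.0368). Its r was -0.86 without the 2 libraries farthest from the median of the Sertoli sum. The Sertoli sum is mostly Dmrt1, which germ cells also express, and transferrin. The endothelial sum is mostly Pecam1 and Eng. Amh, the hormone that defines immature Sertoli cells and here singled out after its values were seen, measured 2.58, 2.58, 1.36 and 1.16 CPM in doxorubicin rats 2, 3, 6 and 8, against 2.06, 2.55, 1.73 and 2.25 CPM in control rats 1, 4, 5 and 9. Doxorubicin rats 2 and 3 lay above and doxorubicin rats 6 and 8 below every control, the same split as for Cyp11a1. The gap above the controls was narrow, with control rat 4 at 2.55 CPM. No other gene of the Sertoli list split in this way. Without Dmrt1 the Sertoli list summed to 193.7, 193.8, 188.9 and 177.7 CPM in doxorubicin rats 2, 3, 6 and 8, against 182.1, 199.4, 191.0 and 191.8 CPM in control rats 1, 4, 5 and 9. The part of depth and of other cells in these genes' values was not tested.

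The genes whose levels followed the Leydig genes most closely were Hic1, Celsr2, Tprn and Tor1a, among 13561 named genes with at least 1 CPM. Their r with the mean standardised level of the 4 Leydig genes was 0.96, 0.94, 0.94 and 0.94 over 8 libraries. Hic1, a transcriptional repressor, measured 5.42, 5.41, 4.15 and 4.25 CPM in doxorubicin rats 2, 3, 6 and 8, against 5.00, 4.82, 4.78 and 4.94 CPM in control rats 1, 4, 5 and 9. For the mean of Acta2 and Myh11 they were Cdkl3, Nyap1, Atn1 and Zfr, with r from 0.92 to 0.94. These values were picked as the highest among many genes over few libraries and are given as a description.

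Wider lists place the 10 genes among others of their pathway, each list holding some of them. Of 17 Leydig and steroid synthesis genes tested, edgeR and DESeq2 called 0 (at an unadjusted p below 0.05, 1 was lower and 0 higher), of which 4 had a positive and 13 a negative log2 ratio, median -0.07. The 3 most abundant were Por, the electron donor of P450 enzymes, at 73.6 ± 8.24 CPM after doxorubicin and 77.3 ± 6.04 CPM in controls, Stard4, a cytosolic sterol carrier, at 51.7 ± 6.31 and 54.4 ± 3.72 CPM, and Scarb1, a lipoprotein receptor, at 46.7 ± 0.54 and 50.9 ± 1.61 CPM. All 3 also serve in cells that make no steroids. The luteinizing hormone receptor Lhcgr, which defines Leydig cells, stood at 0.179 ± 0.043 CPM after doxorubicin and 0.187 ± 0.111 CPM in controls, and was too low to test. Hsd3b1, a steroid dehydrogenase singled out after its values were seen, had 0.502, 0.740, 0.0238 and 0 CPM in doxorubicin rats 2, 3, 6 and 8, against 1.39, 0.425, 0.588 and 0.168 CPM in control rats 1, 4, 5 and 9. It was low or absent in the same treated rats as Cyp17a1. Hsd17b3 and Lhcgr of the same list did not split the treated rats in this way. In doxorubicin rats 2, 3, 6 and 8 Hsd17b3 had 0.225, 0.289, 0.215 and 0.235 CPM, and Lhcgr 0.242, 0.144, 0.167 and 0.163 CPM.

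Of 15 genes of interstitial progenitors, 0 passed edgeR or DESeq2 (at an unadjusted p below 0.05, 2 were lower and 0 higher), and 4 log2 ratios were positive and 11 negative, median -0.08. The Notch receptor Notch2 and its target Hes1, with Dlk1 the most abundant of them, had log2 fold changes of -0.06 and -0.08.

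Of 15 contractile genes, 0 passed edgeR or DESeq2 (at an unadjusted p below 0.05, 2 were higher and 0 lower), and 10 log2 ratios were positive and 5 negative, median 0.10. The higher ones were Myh11 and Myl9, the latter with a log2 fold change of 0.21 ± 0.09 (SE, edgeR unadjusted p = 0.0346, adjusted 0.670). The tropomyosin Tpm1 and the myosin kinase Mylk, among the most abundant, had log2 fold changes of 0.10 and 0.12. Desmin, encoded by Des and singled out after its values were seen, measured 7.32 CPM in doxorubicin rat 2 and 3.52 to 3.67 CPM in the other treated rats, against 2.94 to 3.93 CPM in controls. It was thus highest in the same rat as Myh11. Smtn, Myl9, Tpm1, Mylk, Lmod1 and Synpo2 of this list were also highest in doxorubicin rat 2, and its other genes were not. The actin-associated Tagln and Cnn1, likewise named after the fact, had log2 fold changes of -0.28 and -0.26, of the same sign as Acta2. By edgeR the unadjusted p was 0.218 for Des, 0.0806 for Tagln and 0.120 for Cnn1.

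Of 16 matrix genes, 0 passed edgeR or DESeq2 (at an unadjusted p below 0.05, 1 was lower and 0 higher), and 6 log2 ratios were positive and 10 negative, median -0.14. The lower one was Col1a2, the partner chain of Col1a1, at 12.9 ± 1.42 CPM after doxorubicin and 15.5 ± 1.13 CPM in controls, or -0.27 ± 0.09 as a log2 ratio (SE, edgeR adjusted p = 0.459). The 3 most abundant, Fbln1, Col5a1 and Col4a1, had log2 fold changes of 0.00, 0.08 and 0.10. Of 12 hedgehog pathway genes, 0 passed edgeR or DESeq2 and 0 had an unadjusted p below 0.05, with 5 positive, 7 negative and a median of -0.07. Gli3 and Cdon, a transcription factor and a coreceptor of the pathway and with Ptch1 its most abundant genes, had log2 fold changes of 0.00 and -0.05.

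Lists of the other cells gave 0 calls as well, with edgeR and with DESeq2. The Sertoli list summed to 453.3 ± 16.0 CPM after doxorubicin and 459.3 ± 9.21 CPM in controls, the median log2 fold change of its 17 tested genes was -0.02, and 0 had an unadjusted p below 0.05. Dmrt1, Tf (transferrin, Trf in the list) and Inha led it, with Dmrt1 at 264.8 ± 9.81 CPM after doxorubicin and 268.2 ± 2.77 CPM in controls and Tf at 83.6 ± 3.55 CPM after doxorubicin and 86.4 ± 4.16 CPM in controls. The endothelial list, led by Pecam1, Eng and Egfl7, summed to 179.6 ± 10.4 and 165.4 ± 10.1 CPM, with a median of 0.09 over 9 genes and 1 higher at an unadjusted p below 0.05. Most of that sum was Pecam1 (76.5 CPM after doxorubicin, 70.7 CPM in controls) and Eng (69.6 and 61.2 CPM). Other genes of the list were far lower, with Cdh5 at 2.14 and 2.42 CPM and Emcn at 0.046 and 0.056 CPM. The macrophage list, led by Mrc1, Cd14 and Csf1r, summed to 23.3 ± 0.94 and 22.96 ± 2.84 CPM, with a median of 0.15 over 8 genes and 0 at an unadjusted p below 0.05. Its defining markers were near 0, with Adgre1 at 5 counts and C1qa at 10 counts over all 8 libraries. In the germ cell list, led by Dazl, Uchl1 and Ddx4, the median was -0.02 over 20 genes, with 1 lower at an unadjusted p below 0.05.

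**Figure D5:**
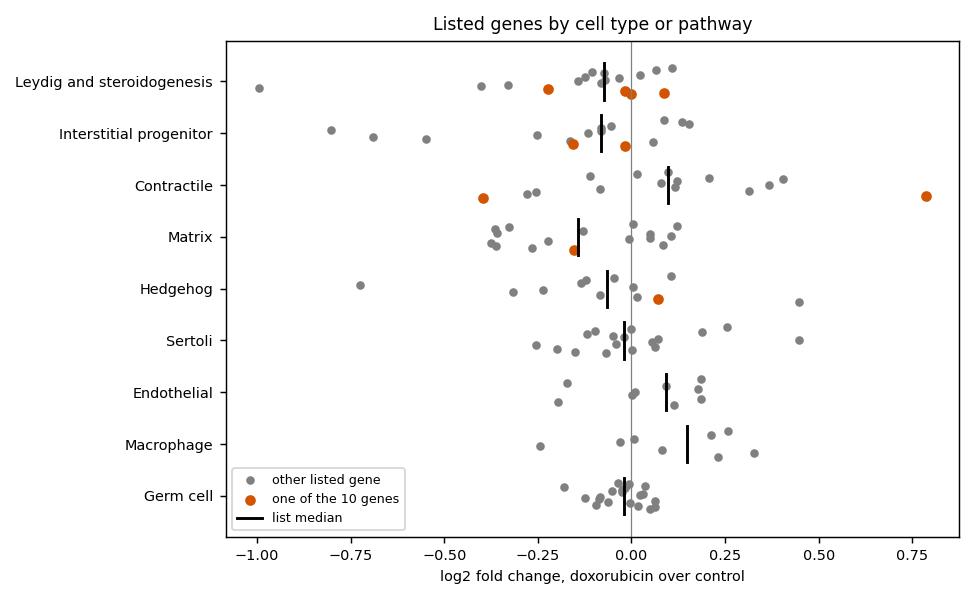
The log2 fold change of doxorubicin over control for each tested gene of the 9 lists, with the 10 genes in orange, other genes in grey and the list median as a black line. The medians lie between -0.14 for matrix genes and 0.15 for macrophage genes, and Myh11 is the point farthest right.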

How the data were processed

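The authors deposited one table of estimated counts per gene for 8 polyA libraries, not normalized. Per the labels' protocols, RNA came from the PicoPure kit. The submitters' processing notes name kallisto 0.48.0, featureCounts, DESeq2 1.40.2, fastp 0.23.2, Trimmomatic and build rn6, with no role or order. Of each library's values 32.5% to 33.6% were not whole (tolerance 1e-06), and all were rounded before any test. No source used here gives the strand setting or how reads were divided between similar genes, and genes with overlapping neighbours are uncertain. Where a symbol repeated, the row with the highest mean count was used. Pairs of libraries differed beyond sampling noise (chi-square per degree of freedom at least 6.22). Doxorubicin rat 2 and control rat 1 stood apart from the rest over the whole table. Pairs with doxorubicin rat 2 ran from 15.8 to 30.8 and pairs with control rat 1 from 15.8 to 20.9. Pairs without either ran from 6.22 to 14.3.

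Genes were kept by filterByExpr (minimum count 10), scaled by TMM and tested in R 4.3.3 with edgeR 4.0.16 (glmQLFit, robust, no covariate), with Benjamini-Hochberg adjustment over 16976 genes and a threshold of 0.05. Log2 CPM used a prior count of 2. DESeq2 1.42.0 and limma 3.58.1 were alternatives, on the same genes, beside other scaling and filters and leaving out each library. Floors and counting errors cover counting only. The 10 genes, the lists and the sets of rat numbers were chosen with earlier results of these data known. Named were the 10 genes, the 3 with the highest mean CPM and any called gene of each list, and the 4 most alike to the Leydig and to the contractile genes. Some genes that this rule names are not reported here. Promoters came from a RefSeq table of GRCr8, not the build of the files, and were matched by gene identifier.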

Additional observations from a re-analysis of the deposited data

Results flagged for a closer look

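In 46 groups of 4 libraries, covering the 10 genes, their sums and the 9 lists, 6 had 1 library far from the other 3, where chance gives about 1 in 20 groups, or 2.3. The groups overlap in genes and use the same libraries, so they are not independent. Whether 6 exceeds 2.3 was not tested. Dlk1 stood at 74.3 CPM in doxorubicin rat 2, against 64.1 to 64.8 CPM in the other treated rats. Ptch1 stood at 61.9 CPM in control rat 4, against 73.3 to 75.6 CPM in the other controls. Col1a1 stood at 25.3 CPM in control rat 9, against 21.3 to 21.8 CPM in the other controls. Among summed lists, the Leydig and steroid synthesis list was at 257.1 CPM in doxorubicin rat 2 (293.1 to 298.0 in the other treated rats). The macrophage list was at 21.9 CPM in doxorubicin rat 3 (23.7 to 23.9). The hedgehog list was at 386.1 CPM in control rat 9 (337.5 to 345.5 in the other controls).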

How the results depend on the processing

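None of the 10 genes passed an adjusted p of 0.05 in the alternatives of tool, scaling, filter and left-out library, with adjusted p from 0.300 upward. Pdgfra, Col1a1, Acta2, Myh11, Ptch1 and Star kept their sign in all 15 of these alternatives. Insl3, Cyp11a1, Cyp17a1 and Dlk1 changed sign in 5, 4, 3 and 4 of theirs, never past the threshold. Myh11 ran from 0.45 to 0.94 and Cyp17a1 from -2.68 (limma-voom) to 0.19. The count over all genes, 19, was 173 with DESeq2, 53 without robust fitting, 61 with the rat-number set as a term, 0 within rats 1 to 4 alone (613 at an unadjusted p below 0.05) and 92 within rats 5 to 9 alone. Cyp17a1 was among the 92, but that set was chosen after seeing the data and holds both treated libraries at 0, so its call there restates those counts. Leaving out 1 library gave 1 to 62 calls, with 62 without doxorubicin rat 2 and 1 without doxorubicin rat 8 or control rat 5. The median r of the Leydig pairs ran from 0.53 to 0.83 when 1 library was left out and was 0.50 with deviations from the rat-number set means. The 1 pair called by r became 0 in each fit that left out a library. The cause of these changes was not tested. Insl3 had 4 to 24 counts a library, a counting error of 26.6%. No paired analysis was possible because the groups share no rat number.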
